A study of Mus musculus with 2 samples.

Results

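The enzymes that hydroxylate and crosslink collagen were compared between LM8, a highly metastatic osteosarcoma subline of mouse, and Dunn, the parental line from which it came, described as non-metastatic. Both lines were untreated and grown in the same medium with 10% serum and 1% non-essential amino acids, and total RNA (10 µg) of each went onto 1 Affymetrix array. The genes were 5 lysyl oxidases (Lox, Loxl1, Loxl2, Loxl3 and Loxl4), 3 lysyl hydroxylases (Plod1, Plod2 and Plod3) and 2 alpha subunits of prolyl 4-hydroxylase (P4ha1 and P4ha2). A probe set, the group of short probes that reads 1 transcript region, was taken where its only annotated symbol was 1 of these 10. This gave 16 probe sets for 9 genes, out of 18193 genes with a probe set of their own on the array. Loxl2 had none. With 1 array per line there was no replicate error, no test and no p-value, and every fold below describes these 2 arrays.

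Collagen is modified in 2 places. In the endoplasmic reticulum, prolyl 4-hydroxylase, built from an alpha subunit and protein disulfide isomerase (P4hb), makes the hydroxyproline that keeps the triple helix stable, and the lysyl hydroxylases make hydroxylysine. Outside the cell, the copper-dependent lysyl oxidases convert lysine and hydroxylysine to reactive aldehydes, which join collagen and elastin molecules into insoluble fibres. Osteoblast-like cells, which lay down large amounts of type I collagen, depend on all 3 enzyme groups, and several of the genes, among them Lox, Plod2, P4ha1 and P4ha2, are known targets of hypoxia-inducible factors.

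The promoters of P4ha1, P4ha2 and Loxl4 are shown because the related pair P4ha1 and P4ha2 differed unequally between the lines while Loxl4 went the opposite way. Promoters of 5 of the genes were matched by symbol in a RefSeq table of build GRCm38.p6, and Lox and Plod2 were not among them. Each stretch below is the 250 bases before the annotated start, and capitals mark ACGTG or GCGTG, the core letters of hypoxia response elements, read on both strands (a CACGTG counts on both).
P4ha1: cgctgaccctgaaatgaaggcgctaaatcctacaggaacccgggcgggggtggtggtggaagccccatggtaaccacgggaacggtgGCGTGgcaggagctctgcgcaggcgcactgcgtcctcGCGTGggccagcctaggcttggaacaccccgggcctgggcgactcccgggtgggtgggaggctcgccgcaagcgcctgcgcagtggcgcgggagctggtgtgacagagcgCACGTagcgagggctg
P4ha2: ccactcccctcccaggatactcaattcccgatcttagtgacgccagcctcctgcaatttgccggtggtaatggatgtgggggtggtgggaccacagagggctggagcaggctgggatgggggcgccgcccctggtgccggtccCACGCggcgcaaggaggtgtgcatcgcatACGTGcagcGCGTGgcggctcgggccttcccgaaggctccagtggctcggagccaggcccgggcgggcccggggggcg
Loxl4: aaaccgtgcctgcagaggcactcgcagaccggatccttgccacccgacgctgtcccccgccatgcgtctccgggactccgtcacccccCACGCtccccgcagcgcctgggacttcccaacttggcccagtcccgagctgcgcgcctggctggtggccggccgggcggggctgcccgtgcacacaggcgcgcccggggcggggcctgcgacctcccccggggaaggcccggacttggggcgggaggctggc
They lie at chr10:59323046-59323295 on the plus strand, at chr11:54100674-54100923 on the plus strand and at chr19:42612807-42613056 on the minus strand. P4ha1 and P4ha2 each had 3 matches, 1 of ACGTG and 2 of GCGTG, and Loxl4 had 1 match, of GCGTG. Of the unprinted promoters, Plod3 had 4 matches and Plod1 had 1. At least 1 match was found in 38.6% of 32851 promoters in the table, and 3 or more in 6.58%. A match is a description of letters and not a binding site, and no relation of the matches to the ratios was tested.

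The signals were on the linear scale of the authors' MAS5 software. A signal at or under the array's median, 18.96 for LM8 and 21.06 for Dunn, was treated as lying at a floor, and a probe set counted as measured where either line exceeded its floor. Of the 16 probe sets, 13 were measured, covering all 9 genes. The 3 dim ones were 1437903_at of Lox (13.5 in LM8, 2.90 in Dunn), 1436063_at of Loxl1 (1.09 in LM8, 1.65 in Dunn) and 1445893_at of Plod1 (5.49 in LM8, 1.37 in Dunn), and no difference is given for them. Differences are log2 of LM8 over Dunn, a gene took the value of its brightest measured probe set, and genes at least 2-fold apart were counted.

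**Figure D1:**
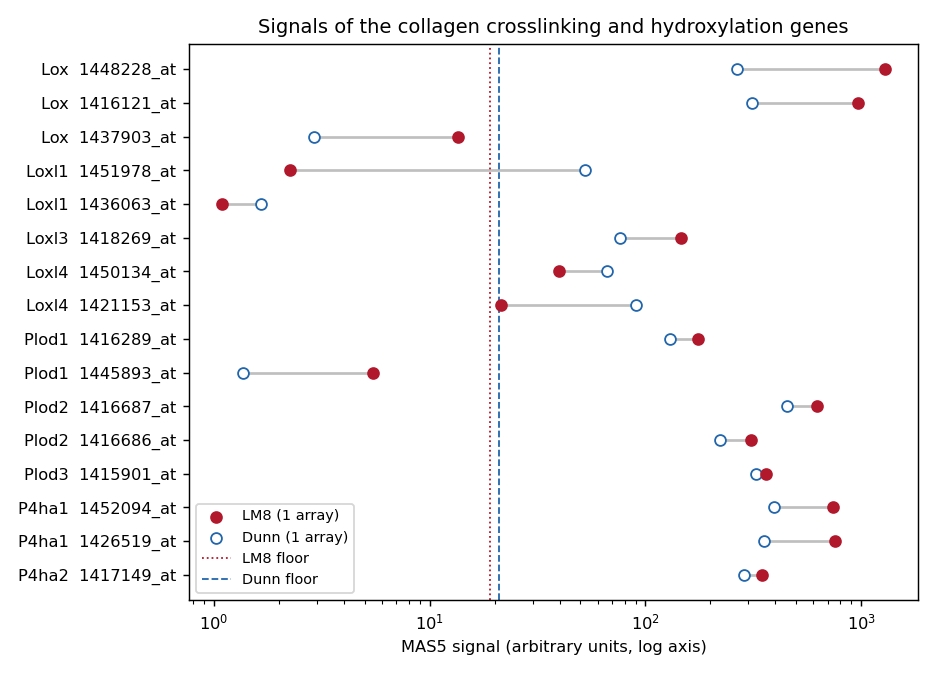
Signal of each of the 16 probe sets in LM8 (filled red) and Dunn (open blue), on a log axis in arbitrary units, with each array's floor as a vertical line. The Lox signals of 1291 and 965 in LM8 stand far right of Dunn, whereas Loxl1 and Loxl4 lie to the left; levels of different probe sets are not comparable.

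Of the 9 measured genes, Lox passed 2-fold upward in LM8, Loxl1 passed it downward, and 7 were less than 2-fold apart. The same upward limit was passed by 6.51% of all 11830 measured genes and the downward limit by 8.84%, so counts of 1 gene in each direction are near the background for a list of this size. By sign, 7 of the 9 had a log2 ratio above 0, against 44.7% of all measured genes. The median log2 ratio was 0.44 for the 9 genes and -0.08 for all measured genes. By probe set, 3 of 13 passed 2-fold upward (2 of Lox and 1 of P4ha1), as did 5.91% of all 25144 measured probe sets, and 2 passed it downward (1 of Loxl1 and 1 of Loxl4), as did 7.79% of all.

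The lysyl oxidases were split. Lox, the founding member of the family, which acts on fibrillar collagen and elastin, had a signal of 1291 in LM8 and 266 in Dunn on its brightest probe set, 1448228_at. Its log2 ratio of 2.28, a 4.85-fold higher signal, ranked 83rd from the highest of all measured genes. The second probe set, 1416121_at, read 965 in LM8 and 313 in Dunn, a log2 ratio of 1.62. Both bright probe sets therefore placed Lox more than 3-fold higher in LM8, and they differed from each other with an SD of 0.46 (log2), above the median SD of 0.30 between probe sets of a gene over 5521 genes.

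Loxl1, which is needed for elastic fibre upkeep in mice, went the other way. Its probe set 1451978_at had a signal of 2.25 in LM8, under the floor, and 52.3 in Dunn. This is at least 2.76-fold lower (log2 ratio -1.46 against the floor). The Dunn signal was itself a low one, and the only other probe set of Loxl1 was under both floors.

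Loxl4, a member with scavenger receptor domains in front of the catalytic part, was lower in LM8 on both probe sets, by unequal amounts. The brighter, 1450134_at, read 39.8 in LM8 and 66.6 in Dunn (log2 ratio -0.74). The dimmer, 1421153_at, read 21.5 in LM8, just above the floor, and 90.0 in Dunn, which is 4.19-fold lower (log2 ratio -2.07). Their SD of 0.94 was the widest among the 4 genes with 2 measured probe sets, and with the mean of both probe sets in place of the brightest the value was -1.41, past 2-fold.

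Loxl3, which also carries scavenger receptor domains and is required for palate and spine development in mice, had a signal of 146 in LM8 and 76.4 in Dunn. Its log2 ratio of 0.94, or 1.92-fold higher, was just short of 2-fold on its 1 probe set, and 7.19% of measured genes had a higher ratio. The 4 measured lysyl oxidases thus ran from -1.46 to 2.28 with a median of 0.10, with 2 of them above 0 and 2 below.

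**Figure D2:**
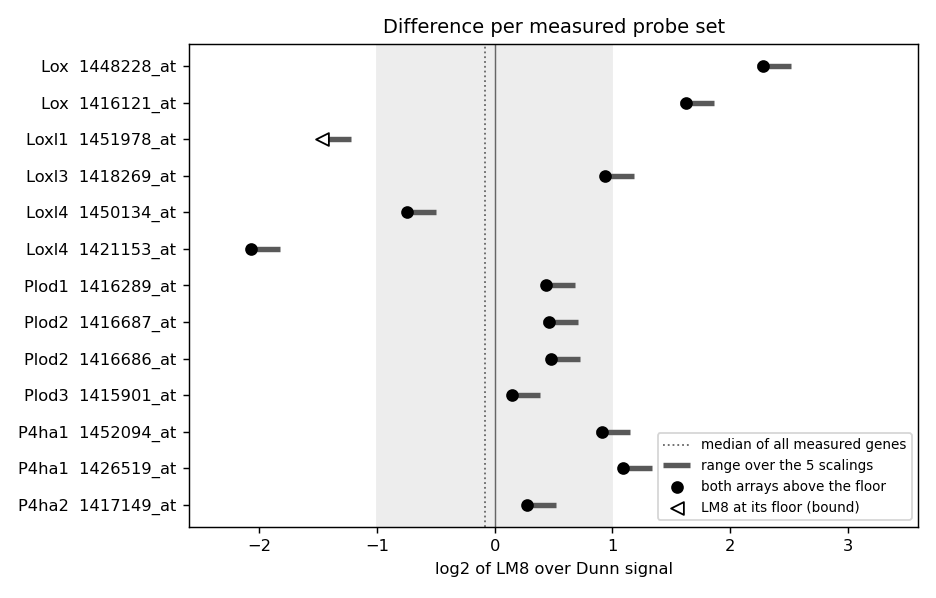
Log2 of LM8 over Dunn for the 13 measured probe sets (points; the open triangle is a bound with LM8 at its floor), with bars for the range over the 5 scalings of the arrays and grey shading for less than 2-fold. Both Lox probe sets and the P4ha1 probe set 1426519_at (1.04 to 1.33) stay right of the shading. Loxl1 and 1 probe set of Loxl4 stay left of it, whereas Loxl3 at 0.94 and the P4ha1 probe set 1452094_at at 0.91 sit at its edge.

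Some markers of other cell types had lower signals in LM8, and others were level. Of 5 fibroblast markers 4 were measured, of which Dcn, Fap and Pdgfrb were at least 2-fold lower in LM8, while Pdgfra read 345 in LM8 and 289 in Dunn (log2 ratio 0.25) and Thy1 was under both floors. Their summed signal was 680 in LM8 and 1071 in Dunn, with Pdgfra the largest term in LM8. Of 7 macrophage markers 5 were measured, and 3 of these (Adgre1, Cd68 and Lyz2) were at the LM8 floor. With signals set to the floor where they lay under it, the macrophage sum was 117 in LM8 and 233 in Dunn. Past 2-fold were Csf1r, whose probe sets ran from -1.49 to 0.48 in log2 ratio, and Lyz2 (-1.24 against the floor), and Ptprc and Itgam were under both floors. Of 5 endothelial markers 2 were measured, Vwf at a log2 ratio of -1.18 and Kdr at 0.00, with a sum of 95.3 in LM8 and 180 in Dunn. Pecam1, Cdh5 and Tek were under both floors. Of 5 epithelial markers 3 were measured and none reached 2-fold. Of these, 2 were at the LM8 floor, and the floored sum was 71.7 in LM8 and 93.8 in Dunn. Cdh1 and Krt18 were under both floors. Both samples were cultured cell lines, not tissue, and these marker signals do not show that other cell types were present. Any link of the markers to the values of Loxl1 and Loxl4 was not tested. In an array of bulk RNA, fewer cells of a type and less RNA per cell cannot be told apart. Of 7 osteoblast markers 6 were measured. Alpl read 1739 in LM8 and 1266 in Dunn, Sp7 read 743 in LM8 and 687 in Dunn, all well above the floors, and Ibsp and Pth1r were at least 2-fold lower in LM8.

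The lysyl hydroxylases were a little higher in LM8 and close to each other. Plod2, which hydroxylates the telopeptide lysines used in bone-type crosslinks, had signals of 624 in LM8 and 453 in Dunn on 1416687_at, a log2 ratio of 0.46. Its second probe set, 1416686_at, read 308 in LM8 and 221 in Dunn, a log2 ratio of 0.48. The SD between the probe sets was 0.01, the narrowest of the 4 genes with 2 measured probe sets.

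Plod1, which acts on lysines of the triple helix, had a signal of 176 in LM8 and 130 in Dunn (log2 ratio 0.44). Plod3, which in addition adds sugars to hydroxylysine, had a signal of 360 in LM8 and 326 in Dunn (log2 ratio 0.14). None of the 3 reached 2-fold, and 19.7% of all measured genes had a higher ratio than Plod2, the highest of them. Values of this size cannot be set apart from array error with 1 array per line.

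The alpha subunits of prolyl 4-hydroxylase differed unequally. P4ha1, the main catalytic subunit in most cells, read 739 in LM8 and 393 in Dunn on 1452094_at (log2 ratio 0.91) and 755 in LM8 and 355 in Dunn on 1426519_at (log2 ratio 1.09, 2.13-fold higher). The probe sets straddle the 2-fold line with an SD of 0.13 between them, so the gene's place on either side of it depends on the probe set. P4ha2, the alternative subunit prominent in cartilage and bone cells, read 347 in LM8 and 287 in Dunn (log2 ratio 0.27). P4hb, the partner of both, read 2716 in LM8 and 2874 in Dunn (log2 ratio -0.08), and P4ha3, the third alpha subunit gene, was under both floors.

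**Figure D3:**
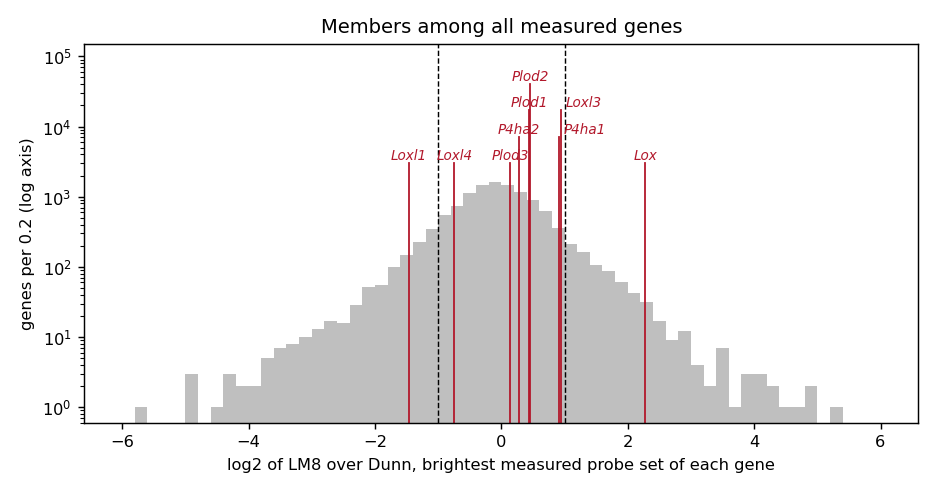
Histogram of the log2 ratio of LM8 over Dunn for 11830 measured genes (log count axis, bins of 0.2), with the 9 measured enzymes as red lines and dashed lines at 2-fold. Lox lies in the upper tail at 2.28, Loxl1 in the lower tail at -1.46, and the lysyl hydroxylases lie inside the main body.

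The scaling of the arrays bears on the genes near 2-fold. With the arrays centred on their medians, or scaled on 12 bacterial hybridisation controls, Loxl3 and P4ha1 passed 2-fold with Lox, so that 3 genes were higher in LM8. Under these scalings the higher genes made up 56.9% and 65.9% of all genes called, against 42.4% in the scaling used, and the median of all genes was 0.07 and 0.16, against -0.08. These scalings shift every gene alike, so the median of the 9 enzymes stood 0.52 above that of all genes in each. It stood 0.46 above with quantile normalization and 0.45 above with signal-dependent centring. Over all 5 scalings Lox ranged from 2.23 to 2.52 and Loxl1 from -1.46 to -1.22.

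Other genes of collagen maturation were mostly level. Of 26 listed, 23 had their own probe set and 19 were measured, and in LM8 3 of these passed 2-fold upward and none downward. For this and the following lists, the shares of all measured genes were 6.51% upward and 8.84% downward. Their median log2 ratio was 0.11, and with the floor at the 75th percentile of each array none passed upward. P3h2, a prolyl 3-hydroxylase, read 119 in LM8 and 14.2 in Dunn, under the floor, and was at least 5.65-fold higher. Pcolce2, an enhancer of the protease that trims procollagen, read 76.9 in LM8 and 12.4 in Dunn and was at least 3.65-fold higher. P3h1, the main prolyl 3-hydroxylase of type I collagen, read 150 in LM8 and 61.8 in Dunn (log2 ratio 1.28), but its second measured probe set had a log2 ratio of -0.00. Its complex partners were under 2-fold, with log2 ratios of 0.29 for Crtap and -0.60 for Ppib, as was the collagen chaperone gene Serpinh1 at 0.11.

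The substrates of the lysyl oxidases went both ways. Of 10 fibrillar collagen chain and elastin genes 9 were measured, and their median log2 ratio was -0.22. Col5a1 passed 2-fold upward (1580 in LM8, 714 in Dunn), Col11a1 passed it downward by at least 2.24-fold (1.81 in LM8, under the floor, and 42.5 in Dunn), and 7 passed neither limit. The 3 probe sets of Col5a1 ran from 0.62 to 1.15, and with probe set means none of the substrates passed upward and 2 passed downward. Col1a1, the alpha 1 chain of type I collagen, read 3537 in LM8 and 2399 in Dunn (log2 ratio 0.56). Col1a2, the alpha 2 chain, had a log2 ratio of -0.26 by the brightest of its 3 probe sets, and the highest of these reached 1.73. The elastin gene Eln had signals of 19.2 in LM8 and 17.9 in Dunn, close to the floors.

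Genes that assist crosslinking or bind lysyl oxidases had the highest share of members 2-fold apart among the 6 lists. Of 13 listed, 10 were measured, and in LM8 4 passed 2-fold upward and 3 downward, beside 6.51% and 8.84% of all measured genes. Their median log2 ratio was -0.79, and with the floor at the 75th percentile 1 passed upward. Fbln5, which tethers lysyl oxidases to elastic fibres, read 422 in LM8 and 86.0 in Dunn (log2 ratio 2.30). Postn, a matrix protein that promotes activation of lysyl oxidase, read 86.0 in LM8 and 8.70 in Dunn, under the floor, and was at least 4.08-fold higher. The other 2 higher genes were the fibulin gene Fbln1 (log2 ratio 1.33) and the small proteoglycan gene Lum (1.28). The 2 probe sets of Fbln1 ran from 0.58 to 1.33. With probe set means 3 genes of this list passed 2-fold upward and 4 downward. Fn1, whose fibronectin matrix binds lysyl oxidase, read 1268 in LM8 and 4522 in Dunn (log2 ratio -1.83). The small proteoglycan gene Dcn had a log2 ratio of -1.41 and Emilin1, a component of elastic fibres, one of -1.35. Fmod, a collagen-binding proteoglycan that binds lysyl oxidase, was very bright in both lines, at 2894 in LM8 and 5352 in Dunn (log2 ratio -0.89). Its 6 measured probe sets ran from -1.27 to -0.89.

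**Figure D4:**
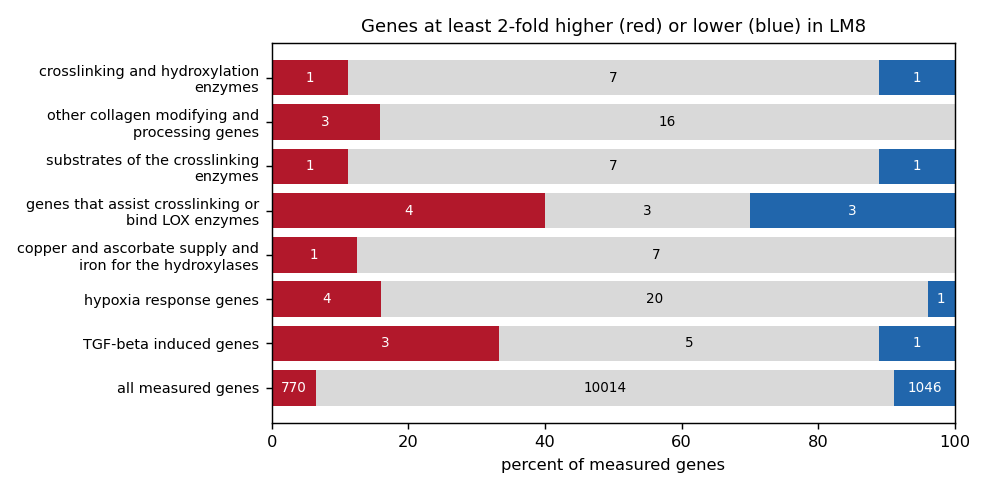
Percent of measured genes at least 2-fold higher in LM8 (red), in between (grey) and at least 2-fold lower (blue) for the enzymes, 6 lists of related genes and all measured genes, with the number of genes in each segment. The enzymes show 1, 7 and 1, and the genes that assist crosslinking or bind lysyl oxidases show 4, 3 and 3.

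Genes that supply the metals and ascorbate these enzymes need gave 8 measured of 10 listed, with 1 past 2-fold upward and none downward and a median log2 ratio of 0.13. The higher gene was Tfrc, the transferrin receptor for iron uptake (1062 in LM8, 465 in Dunn). The copper importer gene Slc31a1 was just under 2-fold at 243 in LM8 and 124 in Dunn (log2 ratio 0.97), and Atp7a, the pump that loads copper onto secreted enzymes, had a log2 ratio of 0.12. Slc23a2, an ascorbate transporter gene, had a log2 ratio of -0.69.

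Hypoxia response genes were listed because several of the enzymes belong to that response. Of 26, 25 were measured, with 4 past 2-fold upward in LM8, 1 past it downward and a median log2 ratio of 0.32. Among all measured genes, 6.51% passed upward and 8.84% downward. The higher ones were the lactate exporter gene Slc16a3 (log2 ratio 3.82, with Dunn at 22.1, just above its floor), Bnip3 (1.62), the oxidoreductase gene Ero1a (1.48) and Epas1, which encodes a hypoxia-inducible factor (1.09), and the lower one was Ndrg1 (-1.06). The 3 probe sets of Ero1a ran from 0.80 to 1.48. Vegfa, a classical target, had a log2 ratio of -0.22, and Egln3 one of 0.12, with -0.91 on its other probe set. Under the scaling on hybridisation controls 7 of the 25 were higher and none was lower.

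The list of genes induced by TGF-beta, a known inducer of Lox, also held its ligand genes Tgfb1, Tgfb2 and Tgfb3. It had 9 measured of 12, with 3 past 2-fold upward, 1 past it downward and a median log2 ratio of -0.00. The shares of all measured genes were 6.51% upward and 8.84% downward. Acta2, smooth muscle actin, had a log2 ratio of 2.59, the matrix gene Tgfbi one of 2.32 and the ligand gene Tgfb3 one of 1.71, whereas Ccn2, a matricellular gene, read 222 in LM8 and 1069 in Dunn (log2 ratio -2.27). Smad7, a feedback inhibitor of the pathway, read 131.9 in LM8 and 132.0 in Dunn.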

How the data were processed

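MAS5 is the tool named in the submitters' processing notes, with its version and settings not given in the sources used here. The values deposited by the authors are intensities on a linear scale for 45101 probe sets, and the 2% trimmed mean of either array is 100. The scanner sheets named the same chip type and the same day for both arrays. The 64 control probe sets were left out, and the other 45037 were put on a common trimmed mean (2% at each end). Signals were floored at each array's median, and log2 ratios were taken of LM8 over Dunn. Where 1 array was at its floor the fold is a lower bound.

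Symbols came from the platform annotation, updated by gene identifier against GRCm38.p6; of the probe sets, 34958 had 1 symbol (99.4% matched), 932 had several and 9160 non-control ones had none. All probe sets of the enzymes are named, and of each of the 6 lists of related genes those at least 2-fold apart, up to 6 by size of the log2 ratio; others, such as Lum to complete a count, cell type markers and genes named by role, were picked with their values in view. The enzymes and lists were chosen with earlier results of these data known. The alternatives were 4 other scalings, 3 other treatments of dim signals, probe set means, a 3-fold rule, and leaving out probe sets ending in _x_at or _s_at or genes at the floor. The steps were run on simulated arrays. Changes were put only into genes whose Dunn signal was far above the floors, so changes in dim genes were not tested there. Python 3.11.15, numpy 2.4.6, pandas 2.3.3, statsmodels 0.14.6 and matplotlib 3.10.9 were used.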

Additional observations from a re-analysis of the deposited data

How the results depend on the processing

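Of 312 alternative values, 279 stayed close to the main one, and none that was 2-fold apart changed sign. Close means within 1.5 times for a count or within 0.30 (log2, the typical SD among a gene's probe sets) for a ratio. The tally overstates stability, because many of the values could hardly differ. Median centring and hybridisation controls shift every ratio alike, by less than 0.30. Probe set means cannot move a gene with 1 measured probe set, and otherwise a gene's ratio repeats that of its brightest probe set. The number of genes 2-fold higher became 3 with median centring and 3 with hybridisation controls, and that of probe sets became 5 under each of these and 5 with no floor, where dim probe sets also count. The number of genes 2-fold lower became 2 with probe set means, 0 with a 3-fold rule and 0 with the floor at the 75th percentile, which left neither Loxl1 nor Loxl4 measured. Probe sets lower became 1 with the 3-fold rule and 0 with that floor. These counts rest on so few genes that 1 gene moves them past 1.5 times. The median of the measured enzymes stayed between 0.37 and 0.68 over all alternatives. Among the lists of related genes, 82 of 96 alternative counts stayed within 1.5 times. With the floor at the 75th percentile the other collagen maturation genes had 0 higher, the substrates 0 lower and the genes that assist crosslinking 1 higher. With probe set means the substrates had 0 higher and 2 lower, and with hybridisation controls they had 0 lower. None of the enzymes' probe sets ended in _x_at or _s_at, so leaving such probe sets out could change none of their values. No paired analysis was possible because each line has 1 array. The bioB spike-in, the scarcest control, did not exceed the floors of both arrays on any of its 6 probe sets, and signals that dim have no order here.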

Other observations

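The probe sets 1431004_at and 1452436_at are annotated with 2 symbols, Loxl2 and Gm21451, and so give no value for either gene. The first had a signal of 49.9 in LM8 and 64.8 in Dunn (log2 ratio -0.38), and the second had 19.99 in LM8 and 26.2 in Dunn (log2 ratio -0.39), near the floors. Each of them lay above the floors of both arrays.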
